A study of Mus musculus with 12 samples.

Results

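The 31 mouse genes of the semaphorin guidance system were followed in DNA methylation data from cerebral cortex: 20 semaphorin genes, which encode the ligands, and 11 receptor genes, namely 9 plexins and 2 neuropilins. They were taken as a named list, and all 31 had at least 500 cytosine calls in every library, as did 19826 of the 23882 genes with a symbol. The quantity is non-CG methylation (mCH), found at cytosines whose next base is not guanine. It was measured by whole-genome bisulfite sequencing, where bisulfite turns unmethylated cytosines into bases read as thymine. A call is a read over a cytosine, methylated or not. The deposited totals of calls are not all whole numbers and are treated here as estimated counts. The level of a gene is the percentage of the non-CG calls over its transcribed region that were methylated.

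The study covered 12 libraries from cortex of C57BL/6 mice in 4 groups. At postnatal day 40 (P40) there were 4 libraries of genotype miR29 KO, a knockout of the microRNA-29 family, and 4 wild-type (WT) libraries. At 4 months there were 2 libraries of genotype Dnmt3a mi5, with titles that read DNMT3AmiR29MUT, and 2 WT libraries. Dnmt3a encodes the de novo DNA methyltransferase of postnatal neurons, and the series title presents miR-29 as a regulator of non-CG methylation. The labels give neither the promoter of any Cre, nor the cells in which an allele acts, nor which of the miR-29 genes is missing, nor whether replicates are separate animals, and p-values therefore reflect only how far these samples scatter. All libraries are of whole cortex, where a different mix of cells and a different level per cell cannot be told apart.

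Semaphorins are cell-surface or secreted proteins that repel or attract growing axons and later shape dendrites and synapses. Class 3 semaphorins are secreted and mostly bind neuropilins, which hold the ligand while a plexin of the A group carries the signal into the cell. Classes 4 to 7 are anchored in the membrane and bind plexins directly. Non-CG methylation accumulates in neurons after birth, and over gene bodies a high level is usually found where a gene is little expressed in the cells concerned.

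The mature microRNAs of the miR-29 family are shown because the P40 genotype is named after them. They share 1 seed, bases 2 to 8, which is the stretch that pairs with target messages and stands in capitals. The sequences are those of RefSeq on GRCm38.p6, read 5′ to 3′.
mmu-miR-29a-3p: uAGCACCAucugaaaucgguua
mmu-miR-29b-3p: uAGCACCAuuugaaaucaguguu
mmu-miR-29c-3p: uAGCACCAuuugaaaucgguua

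A pair of class 3 ligand genes on the same chromosome is shown because their bodies were alike in level and their starts differ. Sema3a and Sema3c had nearly the same WT level at P40, 2.01% ± 0.238 and 2.04% ± 0.243 (SD, n = 4), yet the 250 bases before their starts held 2 CG dinucleotides at Sema3a and 39 at Sema3c. These windows are printed from RefSeq (GRCm38.p6, plus strand, chr5:13396534-13396783 and chr5:17574566-17574815), with each CG in capitals. The motif CG reads the same on both strands.
Sema3a: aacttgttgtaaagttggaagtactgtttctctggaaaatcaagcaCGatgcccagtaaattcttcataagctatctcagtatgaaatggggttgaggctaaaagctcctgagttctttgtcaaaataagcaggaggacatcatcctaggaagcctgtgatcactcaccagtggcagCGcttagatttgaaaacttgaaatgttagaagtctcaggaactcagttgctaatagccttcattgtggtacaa
Sema3c: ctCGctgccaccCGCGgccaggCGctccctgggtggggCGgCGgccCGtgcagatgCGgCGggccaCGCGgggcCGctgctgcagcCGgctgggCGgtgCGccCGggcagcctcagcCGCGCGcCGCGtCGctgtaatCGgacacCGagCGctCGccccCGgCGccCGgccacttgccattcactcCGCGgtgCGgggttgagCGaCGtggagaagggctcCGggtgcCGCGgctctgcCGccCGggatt
Of the 31 genes, 26 matched a RefSeq promoter, with a median of 16.5 CG in the window, and 15627 of all genes tested had a median of 13. A gene with several promoters was represented by the one with most CG, which need not be the start of the row whose level is given. At least 20 CG were found in 34.6% of the 26 promoters and in 29.0% of all. The rank correlation between CG in the window and WT level at P40 was -0.04 over the 26 genes and -0.21 over the 15627, both given as descriptions over genes, which are not independent.

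The depth of the libraries ran from 399563492 to 732985426 non-CG calls, methylated and unmethylated together. The rows of the 4 miR-29 genes, which check the P40 labels, held 6 to 69 calls together in miR29 KO and 121 to 244 in WT. They held 106 to 129 calls in Dnmt3a mi5 and 151 to 200 in WT at 4 months. Taken singly at P40, KO and WT overlapped for Mir29b-1 (0 to 22 calls against 8 to 32). They also overlapped for Mir29b-2 (0 to 32 against 30 to 115), but not for Mir29a or Mir29c. Averaged over genes, the level was 2.16% ± 0.316 (SD, n = 4) in miR29 KO, against 1.39% ± 0.124 (SD, n = 4) in WT. In the older groups it was 2.33% ± 0.0306 (SD, n = 2) in Dnmt3a mi5, against 1.32% ± 0.00564 (SD, n = 2) in WT. In 4 libraries, 1 per group, 3 Y-linked genes had 1.01 to 2.03 calls in each 1000000, while the other 8 libraries had 40.5 to 47.7. Defining markers of cortical cell types showed non-CG levels in all lists, with WT medians at P40 of 1.26% over 6 genes of excitatory neurons, 1.70% over 5 of inhibitory neurons, 2.37% over 5 of astrocytes, 1.66% over 5 of oligodendrocytes, 1.77% over 4 of microglia and 2.08% over 4 of vascular cells.

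In WT cortex at P40 the 31 genes ran from 0.611% for Sema6b to 2.89% for Sema5a, with a median of 1.83%, while the median of all genes tested was 1.31%. Among all genes tested, Sema5a lay at percentile 97.9, Nrp2 at 97.8, Nrp1 at 97.4 and Sema5b at 97.0, whereas Plxna3 lay at 21.9, Sema7a at 20.5 and Sema6b at 16.8. Class 5 thus held the highest ligand levels and the neuropilins the highest receptor levels. The guidance genes also had more calls than most genes, with a median of 22140 per library against 11244 over all genes tested. The rank correlation of calls with WT level was 0.52 over the 31 genes and 0.25 over all, given as a description across genes of the same libraries. Counting error followed the calls. Sema4c, with 2338 calls in the first Dnmt3a mi5 library, had a level of 2.31% and a 95% Wilson interval of 1.77 to 3.0, and Sema6d, with 279598 calls in the second, had 4.03% and 3.96 to 4.11. These intervals cover counting error only, with the rounded totals taken as counts.

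**Figure D1:**
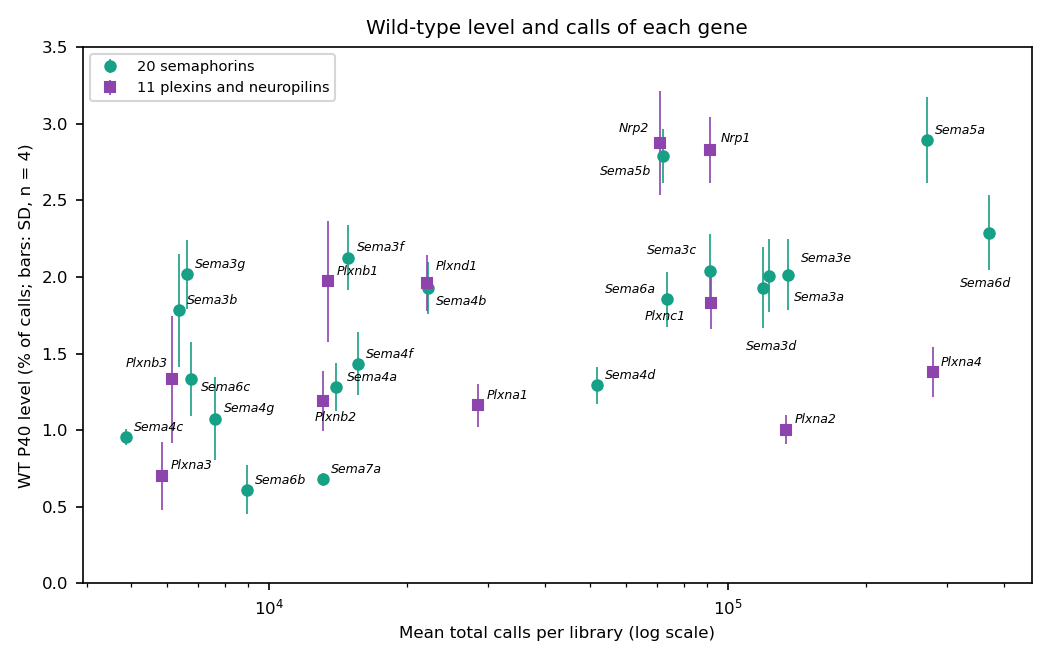
WT level at P40 (y axis, percent of calls, mean with SD over 4 libraries) of each gene against its mean calls per library (x axis, log scale), with semaphorins as circles and receptors as squares. Nrp1, Nrp2, Sema5a and Sema5b stand at the top between 2.79% and 2.89%, and Sema6b, Sema7a and Plxna3 lie at the bottom.

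Over the 31 genes the WT levels at 4 months and at P40 had a rank correlation of 0.93, a description across genes measured in both cohorts. Neighbours in the order changed places: Sema3f averaged 1.71% at 4 months and 2.13% at P40, while Sema3d, lower than Sema3f at P40, averaged 1.86% at 4 months and 1.93% at P40. The class 3 ligands were nearly level with each other, from 1.78% for Sema3b to 2.13% for Sema3f at P40. Sema3d, Sema3a, Sema3e and Sema3c lie in this order along 1 chromosome, with no other protein-coding gene between the first pair, and had 1.93%, 2.01%, 2.01% and 2.04%, differences smaller than the SD of each. Class 6 was the most spread, with 0.611% for Sema6b, 1.34% for Sema6c, 1.85% for Sema6a and 2.29% for Sema6d. The plexin A genes, the main signalling partners of neuropilins, ran from 0.702% for Plxna3 to 1.38% for Plxna4 at P40. These lay at percentiles 21.9 and 52.6 of all genes tested.

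The first comparison asked how the loss of miR-29 changed these genes at P40. In miR29 KO cortex 30 of the 31 genes rose and none fell, against a background of 76.5% of all genes tested rising and 0.0454% falling. The median log2 odds ratio was 0.70 over the guidance genes, 0.71 over the ligands, 0.69 over the receptors and 0.65 over all genes tested, so the size of the rise lay close to that of the genome. The odds ratio compares methylated with unmethylated calls in KO and WT, and a value of 1 on its log2 scale is close to a 2-fold level at these low percentages. A gene passed at an adjusted p under 0.05 in a quasi-binomial model whose dispersion was moderated by limma, with Benjamini-Hochberg adjustment over all 19826 genes. In 23 of the 31 genes every KO library lay above every WT library, which held for 57.1% of all genes tested, and in none did every KO library lie below every WT library, which held for 0.0504%. The groups overlapped in Sema3b, Sema4c, Sema4f, Sema6b, Plxna3, Plxnb2, Plxnb3 and Plxnd1. KO replicate 4 was the lowest KO library in 28 of the 31 genes and in 82.4% of all genes. Of the cell type markers, all tested ones of astrocytes, oligodendrocytes, microglia and vascular cells rose in miR29 KO, as did 4 of the 5 of inhibitory neurons and 2 of the 6 of excitatory neurons. The median log2 odds ratio was 0.38 for the excitatory list and 0.62 to 0.79 for the other lists. In Dnmt3a mi5 at 4 months 2 of the 6 excitatory markers rose, with a median of 0.68, and 3 of the 5 inhibitory ones. Of oligodendrocytes 4 of the 5 rose, and all tested ones of the other lists, against 58.8% of all genes tested. No marker passed as lower, though Slc32a1 had log2 odds ratios of -0.16 at P40 and -0.50 at 4 months. Compared with the median gene of each library, Camk2a, Cux2 and Slc1a2 passed below it at P40, at -0.35, -0.22 and -0.30. No marker passed above it, against 3.59% of all genes tested below and 1.0% above. The part of cell makeup in the results on guidance genes was not tested.

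**Figure D2:**
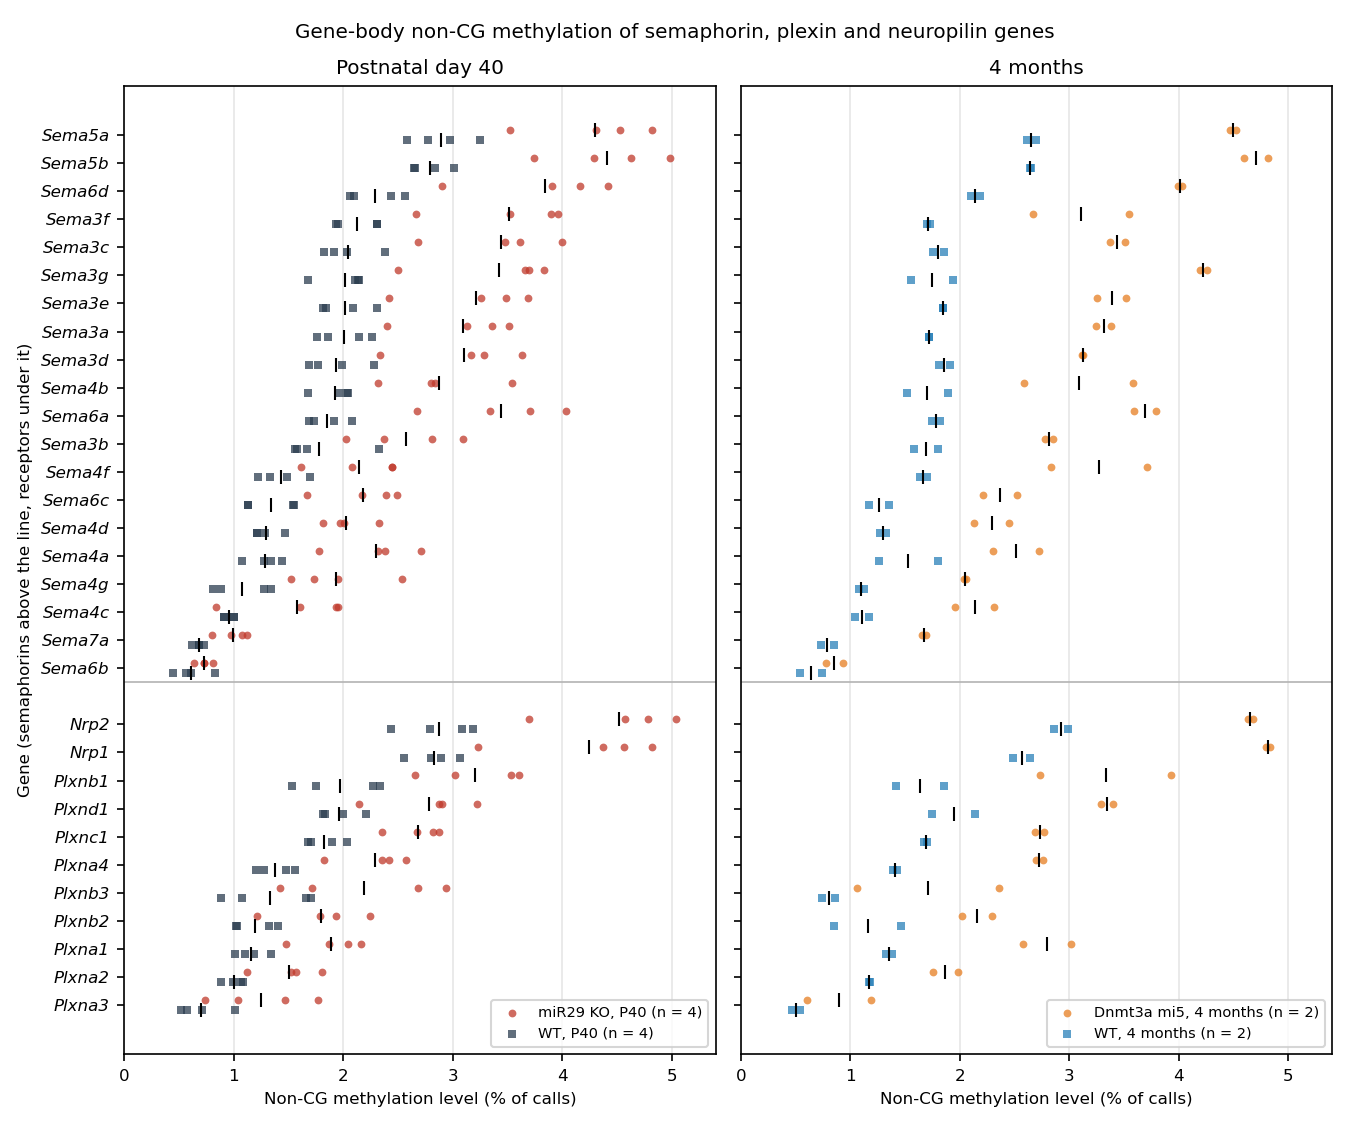
Level of each gene (x axis, percent of non-CG calls) in every library, with mutants as circles, WT as squares and group means as vertical ticks, at P40 on the left (n = 4 each) and at 4 months on the right (n = 2 each). Levels of miR29 KO and Dnmt3a mi5 lie to the right of WT for nearly every gene, while Sema6b at the foot of the ligands shows interleaved symbols at P40.

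All 7 class 3 ligands rose at P40. Sema3a, the classical axon repellent that acts through Nrp1, had 3.51, 3.35, 3.13 and 2.40% in KO libraries, against 1.76, 2.27, 2.15 and 1.86% in WT libraries. The groups did not overlap, and the KO library of replicate 4 stood nearest to WT. The log2 odds ratio was 0.66 (SE 0.12, adjusted p = 0.000146 in the quasi-binomial limma-moderated model). Sema3g, a ligand made largely by blood vessels, had 3.66, 3.69, 3.83 and 2.50% in KO libraries, against 1.68, 2.14, 2.13 and 2.11% in WT libraries. Here 3 KO libraries stood close together and the fourth lay far under them, yet above every WT library (log2 odds ratio 0.80, SE 0.14, adjusted p = 8.02e-05 in the same model). Sema3b had 3.09, 2.81, 2.38 and 2.02% in KO libraries, against 1.67, 2.33, 1.56 and 1.57% in WT libraries. Its WT replicate 2 lay above KO replicate 4, so the groups overlapped, and its rise was the smallest of the class (log2 odds ratio 0.54, SE 0.16, adjusted p = 0.00568 in the same model). The other 4 had KO and WT means of 3.44% and 2.04% for Sema3c, 3.11% and 1.93% for Sema3d, 3.21% and 2.01% for Sema3e, and 3.51% and 2.13% for Sema3f, the repellent that acts through Nrp2.

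All 6 class 4 ligands, transmembrane proteins that mostly bind plexin B receptors, rose as well. Sema4g had 2.53, 1.74, 1.95 and 1.52% in KO libraries, against 0.806, 1.34, 1.28 and 0.884% in WT libraries. The groups did not overlap, and the WT libraries fell into a lower and a higher pair (log2 odds ratio 0.89, SE 0.19, adjusted p = 0.000513 in the quasi-binomial limma-moderated model). Sema4c, a ligand of plexin B2, had 1.95, 1.61, 1.94 and 0.837% in KO libraries, against 1.01, 1.0, 0.908 and 0.911% in WT libraries. KO replicate 4 was lower than all 4 WT libraries while the other 3 KO libraries lay well above them (log2 odds ratio 0.73, SE 0.23, adjusted p = 0.00735 in the same model). Sema4d, the ligand of plexin B1, averaged 2.03% ± 0.214 in KO and 1.29% ± 0.119 in WT (SD, n = 4 each). KO and WT means were 2.30% and 1.28% for Sema4a, 2.88% and 1.93% for Sema4b, and 2.14% and 1.43% for Sema4f.

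Both class 5 ligands, which carry thrombospondin repeats and were the most methylated semaphorins, rose. Sema5b had 4.98, 4.62, 4.29 and 3.74% in KO libraries, against 2.66, 3.02, 2.84 and 2.65% in WT libraries. Every KO library was far above every WT library (log2 odds ratio 0.69, SE 0.10, adjusted p = 5.71e-05 in the quasi-binomial limma-moderated model). Sema5a averaged 4.30% ± 0.556 in KO and 2.89% ± 0.283 in WT (SD, n = 4 each). Sema7a, the single ligand tethered by a lipid anchor, averaged 0.990% ± 0.140 in KO and 0.678% ± 0.0437 in WT (SD, n = 4 each) and also rose.

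Class 6, transmembrane ligands that bind plexin A receptors, held both the largest and the smallest change among the ligands. Sema6a, which binds plexins A2 and A4, had 4.03, 3.71, 3.34 and 2.67% in KO libraries, against 1.73, 2.08, 1.92 and 1.69% in WT libraries. The lowest KO library was above the highest WT library, and the mean ratio of KO over WT was 1.85 (log2 odds ratio 0.92, SE 0.13, adjusted p = 5.71e-05 in the quasi-binomial limma-moderated model). Sema6d, a ligand of plexin A1, had 4.42, 4.16, 3.91 and 2.90% in KO libraries, against 2.1, 2.56, 2.43 and 2.06% in WT libraries, and the groups did not overlap (log2 odds ratio 0.78, SE 0.12). Sema6b had 0.814, 0.639, 0.724 and 0.729% in KO libraries, against 0.829, 0.566, 0.606 and 0.442% in WT libraries. The highest of these 8 values was a WT library, and Sema6b alone did not pass the threshold (log2 odds ratio 0.23, SE 0.22, adjusted p = 0.356 in the same model). Sema6c, with fewer calls, averaged 2.18% ± 0.366 in KO and 1.34% ± 0.241 in WT (SD, n = 4 each) and rose.

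Among the receptors, all 9 plexins and both neuropilins rose at P40. Plxna4, the plexin that carries the Sema3a and Sema6a signals in many axons, had 2.58, 2.42, 2.36 and 1.82% in KO libraries, against 1.28, 1.56, 1.47 and 1.21% in WT libraries. The KO libraries lay above all WT libraries (log2 odds ratio 0.76, SE 0.13, adjusted p = 7.66e-05 in the quasi-binomial limma-moderated model). Plxna2, a receptor of Sema6a, had 1.80, 1.53, 1.57 and 1.12% in KO libraries, against 0.989, 1.08, 1.07 and 0.878% in WT libraries. Only a narrow gap separated KO replicate 4 from the highest WT library (log2 odds ratio 0.60, SE 0.16, adjusted p = 0.00199 in the same model). Plxna1, a partner of Sema6d, averaged 1.89% ± 0.300 in KO and 1.16% ± 0.141 in WT (SD, n = 4 each).

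Plxnb1, the receptor of Sema4d, had 3.61, 3.53, 3.02 and 2.66% in KO libraries, against 1.53, 2.27, 2.34 and 1.75% in WT libraries. Its WT libraries were widely spread, but none reached a KO library (log2 odds ratio 0.73, SE 0.15, adjusted p = 0.000229 in the quasi-binomial limma-moderated model). Plxnd1, the receptor that binds Sema3e without a neuropilin, had 3.22, 2.87, 2.90 and 2.15% in KO libraries, against 1.83, 2.21, 2.0 and 1.81% in WT libraries. KO replicate 4 lay under WT replicate 2, and the rise was the smallest among the receptors (log2 odds ratio 0.53, SE 0.12, adjusted p = 0.000911 in the same model). Plxnb2 averaged 1.79% ± 0.432 in KO and 1.19% ± 0.196 in WT (SD, n = 4 each), and Plxnc1, the receptor of Sema7a, averaged 2.68% ± 0.236 in KO and 1.83% ± 0.170 in WT (SD, n = 4 each).

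The neuropilins had the highest receptor levels in both groups. Nrp1, the Sema3a receptor that also binds vascular endothelial growth factor, had 4.82, 4.56, 4.37 and 3.23% in KO libraries, against 2.55, 3.06, 2.89 and 2.80% in WT libraries. Nrp2, the Sema3f receptor, had 5.03, 4.79, 4.57 and 3.70% in KO libraries, against 2.43, 3.19, 3.09 and 2.79% in WT libraries. Neither gene had overlapping groups, and in both KO replicate 4 was the lowest of the KO libraries. The log2 odds ratio was 0.62 (SE 0.11, adjusted p = 9.88e-05) for Nrp1 and 0.69 (SE 0.11, adjusted p = 5.71e-05) for Nrp2 in the quasi-binomial limma-moderated model.

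Plxna3 and Plxnb3, a receptor of class 3 signals with Nrp2 and a receptor of Sema5a, are the X-linked members. Plxna3 had 1.47, 1.77, 0.735 and 1.03% in KO libraries, against 0.570, 0.517, 1.02 and 0.707% in WT libraries. Plxnb3 had 2.94, 2.68, 1.42 and 1.71% in KO libraries, against 1.07, 0.881, 1.71 and 1.66% in WT libraries. Both sets of groups overlapped, with KO replicate 3 the lowest KO library and WT replicate 2 the lowest WT library in each gene. The log2 odds ratio was 0.83 (SE 0.31, adjusted p = 0.0195) for Plxna3, the largest among the receptors, and 0.73 (SE 0.27, adjusted p = 0.0208) for Plxnb3 in the quasi-binomial limma-moderated model. These were the only members whose call at P40 was lost when 1 library was left out: adjusted p for Plxna3 was 0.102 without WT replicate 2 and 0.0888 without KO replicate 2, and for Plxnb3 it was 0.0634, 0.0650 and 0.0533 without KO replicates 1, 2 and 4, and 0.0631 and 0.126 without WT replicates 1 and 2.

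The KO and the WT library that were lowest in their group for Plxna3 and Plxnb3 at P40 were those of low Y-gene coverage. In these 4 libraries of the series the coverage of both genes was 1.83 times that in the others, while the ratio of the other 29 genes was 0.927 to 1.02. The level of Plxna3 in low-Y libraries over that in the others of the same group was 0.517 in miR29 KO, 0.677 in WT at P40, 0.507 in Dnmt3a mi5 and 1.15 in WT at 4 months. For Plxnb3 these ratios were 0.581, 0.595, 0.448 and 0.860. Over 724 genes whose coverage ratio lay between 1.5 and 2.7 the median level ratios were 0.604, 0.749, 0.634 and 0.675, and over the other 29 guidance genes they were 1.01, 1.17, 1.03 and 1.0. The level of KO over that of WT within the libraries of low Y-gene coverage, 1 against 1, was 1.42 for Plxna3 and 1.61 for Plxnb3. In the other libraries, 3 against 3, it was 1.86 and 1.65. All 31 genes had a ratio above 1 in both kinds of library at P40, with medians of 1.42 and 1.65.

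**Figure D3:**
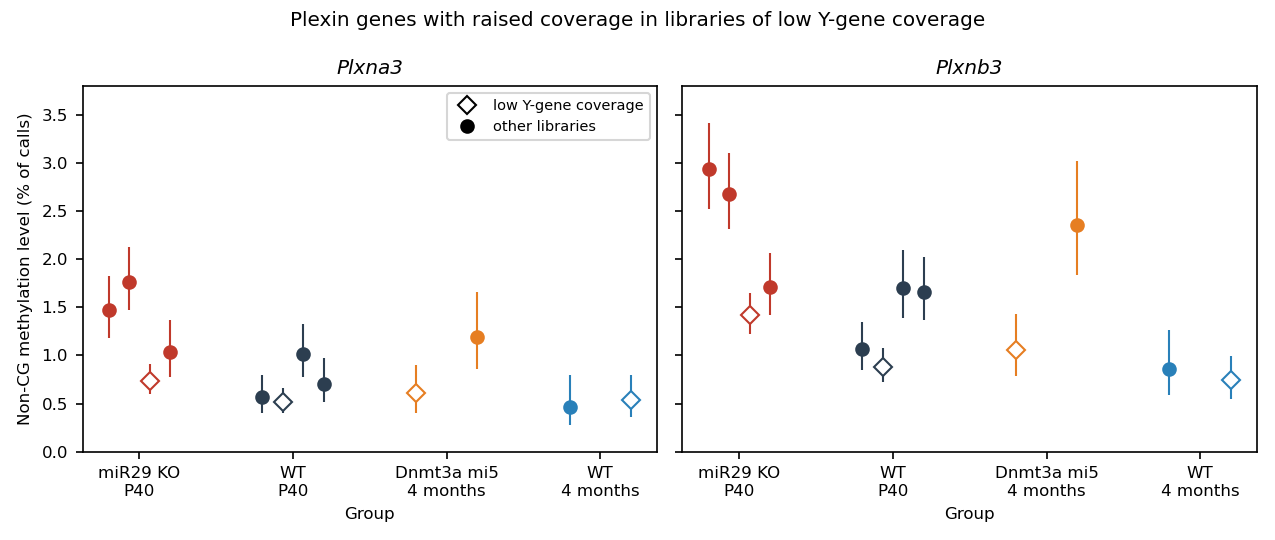
Levels of Plxna3 (left) and Plxnb3 (right) in every library (y axis, percent of non-CG calls; bars are 95% Wilson intervals, counting error only), by group. Open diamonds mark the 4 libraries of low Y-gene coverage, which give the lowest value of their group in all but Plxna3 of WT at 4 months.

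Since most genes in the genome rose, each gene was also compared with the median gene of its library. On this scale Sema6a and Sema6d passed above the common shift at P40 and 0 members passed below it, against a background of 1.0% of all genes tested above and 3.59% below. Of the 31 genes, 18 (58.1%) had an estimate above the shift, against 42.1% of all genes tested, whose median was -0.03. Sema6a exceeded the shift by a log2 odds ratio of 0.24 (SE 0.04, adjusted p = 0.00102 in the quasi-binomial limma-moderated model), and Sema6d by 0.10 (SE 0.03, adjusted p = 0.0361). At an unadjusted p under 0.05, 8 of the 31 passed in either direction, which is 25.8% against 20.7% of all genes tested. Sema6b lay at -0.46 on this scale and did not pass (SE 0.20, adjusted p = 0.189 in the same model).

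The call of Sema6a was kept without each library in turn, with adjusted p of at most 0.00679 in the quasi-binomial limma-moderated model. With limma on log2(percent + 0.1) its adjusted p was 0.0970. Sema6d lost its call without KO replicates 1, 2 and 3 and without WT replicates 1 and 4, with limma-moderated adjusted p between 0.0916 and 0.111. Without KO replicate 4 there were 4 calls, with Sema5a (log2 odds ratio -0.10) and Plxnc1 (-0.15) below the shift beside Sema6a and Sema6d above it. The shorter rows of Sema6d, which cover other transcripts, had KO and WT means of 3.72% and 2.34% with 37147 calls and 3.41% and 2.12% with 8634 calls, close to 3.85% and 2.29% in the row of 370040 calls used here. With the shortest row, Sema6d did not pass relative to the shift (adjusted p = 0.862 in the same limma-moderated model).

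**Figure D4:**
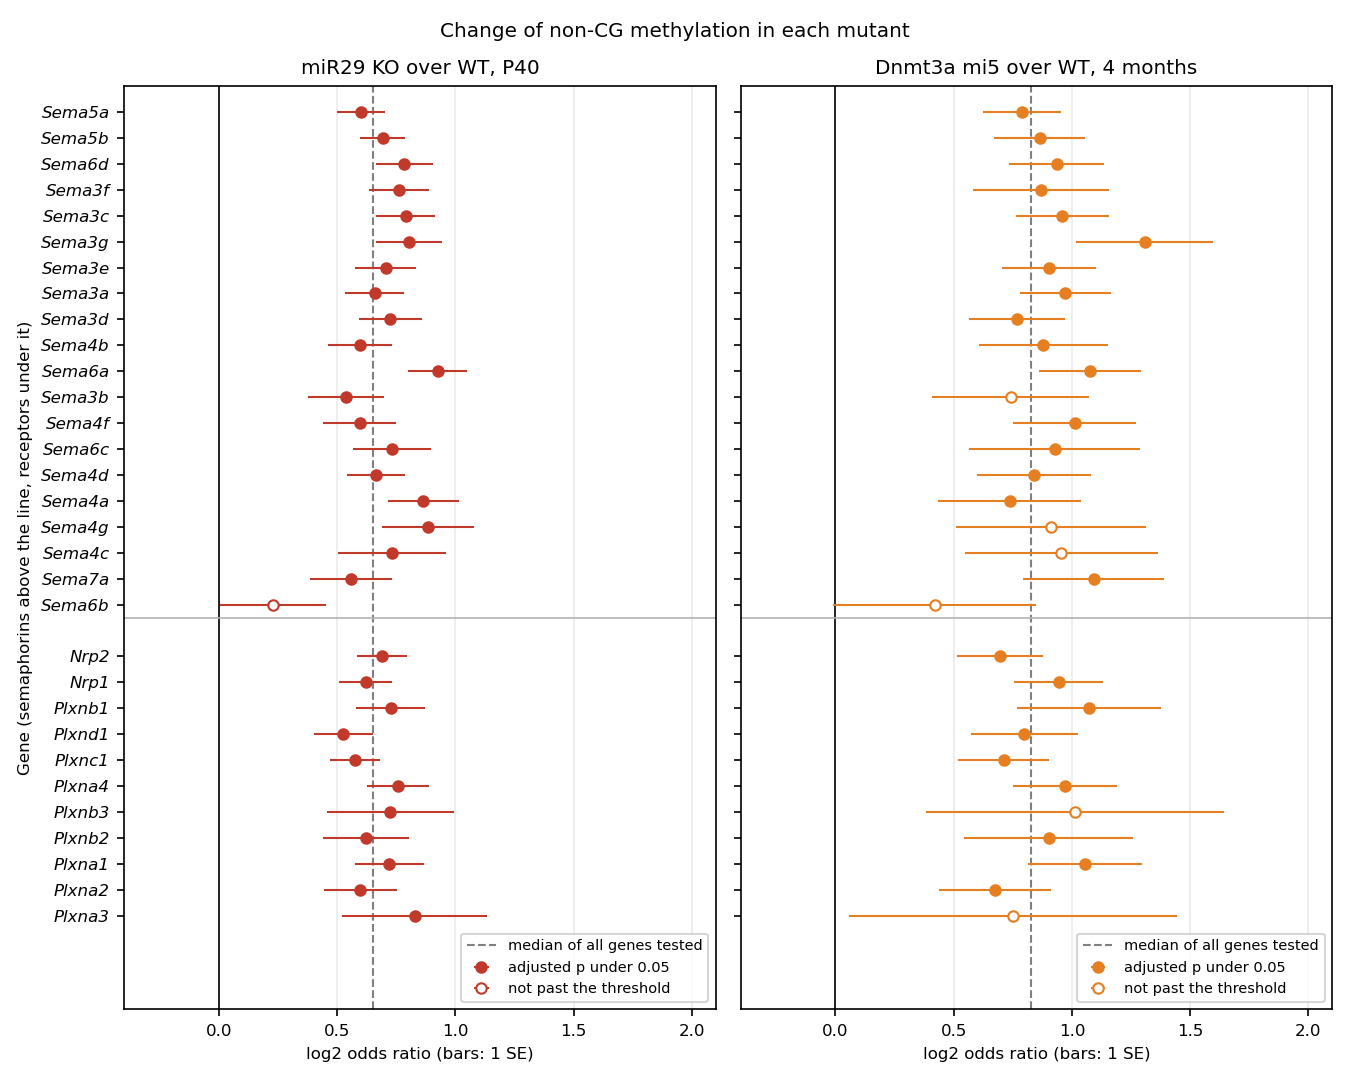
Log2 odds ratio of each gene (x axis, bars are 1 SE) in miR29 KO over WT at P40 (left) and Dnmt3a mi5 over WT at 4 months (right). Filled points passed the threshold, and the dashed line is the median of all genes tested, 0.65 at P40 and 0.83 at 4 months. Most genes lie near that line, with Sema6a right of it and Sema6b left of it at P40.

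At 4 months the question was how the Dnmt3a mi5 genotype changed these genes. In Dnmt3a mi5 cortex 25 of the 31 genes rose and none fell, against 58.8% of all genes tested rising and 0% falling. The median log2 odds ratio was 0.90 over the guidance genes and 0.83 over all genes tested. In all 31 genes both mi5 libraries lay above both WT libraries, which held for 86.2% of all genes tested, and the opposite held for 1.03%. Of the ligands 16 of 20 rose and of the receptors 9 of 11.

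Sema3g had the largest change among the ligands at 4 months, with 4.25 and 4.20% in mi5 libraries, against 1.94 and 1.56% in WT libraries. Its mi5 libraries agreed closely while its WT libraries differed by more, and the ratio of the means was 2.42 (log2 odds ratio 1.31, SE 0.29, adjusted p = 0.00300 in the quasi-binomial limma-moderated model). Sema3a had 3.38 and 3.25% in mi5 libraries, against 1.72% in both WT libraries. Sema6a had 3.79 and 3.59% in mi5 libraries, against 1.75 and 1.82% in WT libraries. In both genes the gap between genotypes far exceeded that within a genotype, with log2 odds ratios of 0.97 (SE 0.19) for Sema3a and 1.08 (SE 0.22) for Sema6a. Sema5b had 4.59 and 4.81% in mi5 libraries, against 2.64 and 2.65% in WT libraries, and Sema6d had 3.99 and 4.03%, against 2.1 and 2.18%. Both rose, with an adjusted p of 0.00300 in the same limma-moderated model.

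The neuropilins and their plexin partner rose too. Nrp1 had 4.83 and 4.79% in mi5 libraries, against 2.49 and 2.64% in WT libraries. Nrp2 had 4.63 and 4.68% in mi5 libraries, against 2.99 and 2.86% in WT libraries. Plxna4 had 2.76 and 2.7% in mi5 libraries, against 1.39 and 1.43% in WT libraries. Replicates of all 3 genes lay close together in each genotype, and the log2 odds ratios were 0.95 (SE 0.19) for Nrp1, 0.70 (SE 0.18) for Nrp2 and 0.97 (SE 0.22) for Plxna4. Plxnb1, with the largest receptor change, had 2.74 and 3.93% in mi5 libraries, against 1.42 and 1.86% in WT libraries, so its mi5 libraries differed widely (log2 odds ratio 1.07, SE 0.30, adjusted p = 0.00710 in the quasi-binomial limma-moderated model). Plxna2, with the smallest, had 1.99 and 1.75% in mi5 libraries, against 1.18 and 1.17% in WT libraries (log2 odds ratio 0.67, SE 0.24, adjusted p = 0.0224 in the same model). Plxnd1 had 3.40 and 3.29% in mi5 libraries, against 2.14 and 1.75% in WT libraries, and rose.

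The remaining genes that rose at 4 months had mi5 and WT means as follows. Among secreted ligands these were 3.44% and 1.80% for Sema3c, 3.12% and 1.86% for Sema3d, 3.39% and 1.84% for Sema3e, and 3.11% and 1.71% for Sema3f. Among membrane ligands they were 2.51% and 1.53% for Sema4a, 3.09% and 1.70% for Sema4b, 2.29% and 1.30% for Sema4d, 3.27% and 1.67% for Sema4f, 4.50% and 2.65% for Sema5a, 2.37% and 1.26% for Sema6c, and 1.67% and 0.790% for Sema7a. Sema7a, one of the least methylated members in WT, thus had a ratio of 2.12. Among plexins they were 2.79% and 1.36% for Plxna1, 2.16% and 1.16% for Plxnb2, and 2.73% and 1.69% for Plxnc1.

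The 6 genes that did not pass at 4 months in the fit of all 12 libraries were among the 8 members with the fewest calls. Sema4c had 2.31 and 1.96% in mi5 libraries, against 1.17 and 1.04% in WT libraries. Sema4g had 2.04 and 2.06% in mi5 libraries, against 1.08 and 1.12% in WT libraries. Sema3b had 2.85 and 2.77% in mi5 libraries, against 1.80 and 1.58% in WT libraries. In these 3 genes the groups were well apart, with adjusted p of 0.0506, 0.0568 and 0.0603 in the quasi-binomial limma-moderated model, just over the threshold. Plxnb3 had 1.06 and 2.36% in mi5 libraries, against 0.862 and 0.741% in WT libraries. Plxna3 had 0.605 and 1.19% in mi5 libraries, against 0.466 and 0.538% in WT libraries. For both X-linked genes the mi5 library of low Y-gene coverage was the low one, and adjusted p was 0.165 for Plxnb3 and 0.346 for Plxna3 in the same limma-moderated model. Sema6b had 0.930 and 0.777% in mi5 libraries, against 0.745 and 0.539% in WT libraries, the smallest change among the ligands in this comparison as at P40 (log2 odds ratio 0.42, SE 0.43, adjusted p = 0.393 in the same limma-moderated model).

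With 2 libraries a group, calls at 4 months leaned on each of them. Sema3a, Sema3c, Sema3e, Sema3g, Sema5a, Sema5b, Sema6a, Sema6d, Plxna1, Plxna4, Nrp1 and Nrp2 kept their call without any single library of the series, and 13 lost it without at least 1, with limma-moderated adjusted p between 0.0512 and 0.275. The number that passed was 19 without either mi5 library, 15 without WT replicate 1 and 17 without WT replicate 2. It was 24 without KO replicate 2 or 3 of P40, 28 without KO replicate 1 or 4 and 26 without WT replicate 2 of P40, which share the estimate of the spread. A fit of the 4-month groups alone gave 29 genes, with Sema3b, Sema4c, Sema4g and Plxnb3 added. Their adjusted p was then 0.00345, 0.00445, 0.00172 and 0.0301 in the quasi-binomial limma-moderated model. Limma on percent or log2 percent levels gave 28. No share of all genes tested is given for these counts. Relative to the common shift, 0 of the 31 genes passed at 4 months, against a background of 0% above and 0.0353% below. At an unadjusted p under 0.05 there were 3, which is 9.68% against 9.09% of all genes tested. With limma 0 passed on log2 percent levels and 15 on percent levels, a scale for which no share of all genes tested is given. Sema6a lay at 0.20 (SE 0.06, adjusted p = 0.290 in the quasi-binomial limma-moderated model) and Sema3g at 0.44 (SE 0.21, adjusted p = 0.549).

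The changes in the mutants were also set against each other. The log2 odds ratio at 4 months exceeded that at P40 in 29 of the 31 genes, by a median of 0.20, and in 77.7% of all genes tested, by a median of 0.18. No guidance gene passed the test of this difference in the quasi-binomial limma-moderated model, against a background of 0% in either direction. At an unadjusted p under 0.05 there were 0, against 1.46% of all genes tested. With limma on percent or log2 percent levels 0 passed as well. Genotype, age and cohort differ at once between these contrasts and cannot be told apart.

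The wild types were compared between the ages. Of the 31 genes, 0 passed in WT at 4 months against WT at P40, against a background of 0.131% rising and 0% falling in the quasi-binomial limma-moderated model. At an unadjusted p under 0.05 there were 0, against 2.33% of all genes tested. With limma on percent or log2 percent levels 0 passed as well. Median levels over the 31 genes were 1.69% at 4 months and 1.83% at P40. In Sema4c, Sema7a and Plxna2 both older libraries lay above all 4 younger ones, and in Sema3a, Sema3f and Plxnb3 both lay below, which held for 6.03% and 12.1% of all genes tested. Relative to the common shift, a scale added for this comparison after the data were seen, Plxna2 alone passed, with 1.18 and 1.17% in WT libraries at 4 months, against 0.989, 1.08, 1.07 and 0.878% in WT libraries at P40. Both older libraries were above all 4 younger ones (log2 odds ratio relative to the shift 0.33, SE 0.07, adjusted p = 0.0224 in the limma-moderated model), against a background of 1.44% above and 0.101% below. Its adjusted p was 0.213 without WT replicate 1 at 4 months, 0.303 without WT replicate 2 at 4 months and 0.0566 without WT replicate 2 at P40, and age and cohort cannot be told apart. Relative to the shift, 7 of the 31 genes had an unadjusted p under 0.05 in the same limma-moderated model. That is 22.6%, against 10.4% of all genes tested.

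Ligand genes were more methylated than receptor genes in the middle of their ranges. The median over the 20 ligands, averaged over libraries, was 2.97% in miR29 KO and 1.86% in WT at P40, and 3.10% in Dnmt3a mi5 and 1.72% in WT at 4 months. Over the 11 receptors it was 2.43% in miR29 KO and 1.55% in WT at P40, and 2.72% in Dnmt3a mi5 and 1.42% in WT at 4 months. The median of all genes tested was 2.07% in miR29 KO and 1.31% in WT at P40, and 2.21% in Dnmt3a mi5 and 1.22% in WT at 4 months, under both roles. The ligand median was the higher in all 12 libraries, by 0.381 to 0.652 points in miR29 KO and by 0.0186 to 0.555 points in WT at P40. The median of 11 receptors is the level of a single gene. In KO replicate 2 and in WT replicates 3 and 4 at P40 that gene was the X-linked Plxnb3, at 2.68, 1.71 and 1.66%. The difference of 0.0186 points is that of WT replicate 4. At 4 months the difference was 0.516 and 0.249 points in Dnmt3a mi5, and 0.293 points in each WT library.

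The size of this difference depended on the summary. With means over genes in place of medians it was 0.177 points in miR29 KO and 0.0587 points in WT at P40, and at 4 months it was 0.206 points in Dnmt3a mi5 and 0.0748 points in WT. No p is given for a summary over a chosen list. Within the receptors the neuropilins had a median of 4.38% in miR29 KO and 2.85% in WT at P40, and the plexin A genes 1.70% in miR29 KO and 1.08% in WT. Among the ligands class 5 had 4.35% in miR29 KO and 2.84% in WT, class 3 had 3.21% in miR29 KO and 2.01% in WT, and class 4 had 2.09% in miR29 KO and 1.29% in WT.

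**Figure D5:**
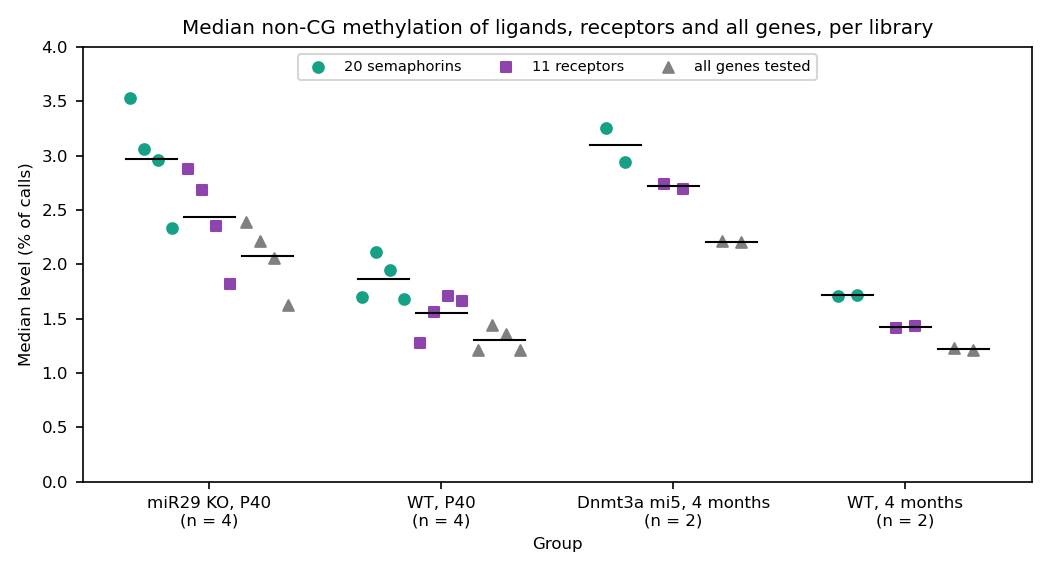
Median level (y axis, percent of non-CG calls) over the 20 semaphorins (circles), the 11 receptors (squares) and all genes tested (triangles) in each library, by group, with group means as lines. In each library the circle is above the square and both are above the triangle, and the smallest gap between circle and square is 0.0186 points in a WT library at P40.

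The 34 partner genes of semaphorin signalling, which encode co-receptors, kinases, small GTPases and regulators of the cytoskeleton, were taken as a second list. At P40 30 of them rose and 0 fell, against the 76.5% and 0.0454% of all genes tested, with a median log2 odds ratio of 0.66, and at 4 months 24 rose and 0 fell, against 58.8% and 0% of all genes tested, with a median of 0.89. Relative to the common shift at P40, 3 passed above it and 3 below, against 1.0% and 3.59% of all genes tested. Dpysl3 and Dpysl5, which belong to the collapsin response mediators that act downstream of Sema3a, averaged 3.22% ± 0.610 and 3.86% ± 0.662 in miR29 KO, against 1.76% ± 0.202 and 2.12% ± 0.278 in WT (SD, n = 4 each). Met, a receptor tyrosine kinase that associates with plexin B1, averaged 3.73% ± 0.636 in miR29 KO and 2.08% ± 0.370 in WT (SD, n = 4 each). These 3 were the ones above the shift, by log2 odds ratios of 0.22, 0.22 and 0.19. Of the other collapsin response mediators, Crmp1, Dpysl2 and Dpysl4 lay below the shift, at -0.15, -0.30 and -0.11, and did not pass. Their adjusted p relative to it was 0.362, 0.103 and 0.744 in the quasi-binomial limma-moderated model.

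At the other end stood genes that did not pass at P40. Mical2, of the family of oxidoreductases that take apart actin filaments on plexin signals, averaged 1.0% ± 0.175 in miR29 KO and 0.821% ± 0.0397 in WT (SD, n = 4 each), and lay below the shift by a log2 odds ratio of -0.39 (adjusted p = 0.00146 in the quasi-binomial limma-moderated model). Gipc1, an adaptor that binds the tail of Nrp1, averaged 0.789% ± 0.163 in miR29 KO and 0.664% ± 0.210 in WT (SD, n = 4 each). Cfl1, the actin-severing protein cofilin, averaged 0.343% ± 0.0626 in miR29 KO and 0.248% ± 0.0526 in WT (SD, n = 4 each). Adjusted p at P40 was 0.105 for Mical2, 0.296 for Gipc1 and 0.371 for Cfl1 in the same limma-moderated model. Dpysl2 averaged 0.718% ± 0.114 in miR29 KO and 0.548% ± 0.0378 in WT (SD, n = 4 each). It did not pass at P40 either (adjusted p = 0.0582 in the same limma-moderated model). Mical3 and Nrcam rose, but by less than the median gene, at -0.22 and -0.18 relative to the shift.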

How the data were processed

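Whole-genome bisulfite sequencing of cortex DNA was carried out with spiked-in unmethylated lambda DNA, per the labels' protocols. Reads were processed with BSMAP on mm9, per the submitters' processing notes, with no version. The authors deposited 1 table per library with a methylated call count and a total per RefSeq transcript. The totals are not all whole, and the deposited values are treated as estimated counts; the sources used here do not say how they were made. The conversion rate was not used, so the levels include unconverted cytosines.

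Transcripts were given symbols through a RefSeq table of GRCm38.p6, used for names, neighbours and printed sequences only, with no gene positions converted to mm9. Of 36672 rows, 300 without a symbol and 1395 with a repeated identifier were left out. The row with most calls stood for a gene, and 500 calls were required in every library. The estimated totals were rounded to whole numbers before use.

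A quasi-binomial logistic model with group means was fitted for each gene over all 12 libraries. Its dispersion (median 5.13) was moderated with squeezeVar of limma 3.58.1 (trend, robust) in R 4.3.3, and p-values were Benjamini-Hochberg adjusted over 19826 genes at 0.05. For changes relative to the common shift, the logit of each library's median gene level was an offset. The fits ran in numpy 2.4.6 and scipy 1.17.1 under Python 3.11.15, tables in pandas 2.3.3 and figures in matplotlib 3.10.9. The model was run on simulated calls in which a small part of the genes changed. That simulation held no common shift of most genes, so it does not cover the setting of these data.

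Groups came from genotype and age in the labels. Replicates of a group differed by more than sampling noise, with a chi-square per gene of at least 2.73. The members, partner list and tests were chosen with earlier results of these data known. Values of every library are printed for members at the highest or lowest level or change within a role, for those not past the threshold (up to 4 per contrast), for those past it relative to the shift, and for Sema3a, Plxna4, Nrp1 and Nrp2. Plxna3 and Sema6b at 4 months are given also. Of the partners, the 3 smallest and 3 largest adjusted p at P40 are named. Crmp1, Dpysl2, Dpysl4, Mical3 and Nrcam were added after their values were seen. Alternatives covered the call minimum, scale, pseudocount, background subtraction, transcript row, moderation, samples in the fit, libraries of low Y-gene coverage, the replicate block and each library left out.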

Additional observations from a re-analysis of the deposited data

Results flagged for a closer look

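In 3 of 62 groups of 4 libraries, 1 library stood far from the other 3 (by the gap to its nearest neighbour over the range of the group). Chance flags about 1 in 20 such groups. KO replicate 4 had a Sema3g level of 2.50%, while the other 3 KO libraries had 3.66 to 3.83%. WT replicate 1 at P40 had a Sema3g level of 1.68%, while the other 3 WT libraries had 2.11 to 2.14%. WT replicate 2 at P40 had a Sema3b level of 2.33%, while the other 3 had 1.56 to 1.67%.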

How the results depend on the processing

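Of 1474 values of single genes under an alternative, 1358 kept their direction and their side of the threshold, 87 lost the threshold, 29 gained it and 0 changed sign. Some alternatives, such as leaving out a library of the other age, could not move the estimate or its sign, only its adjusted p. With each library left out in turn, 28 to 30 genes passed at P40, 15 to 28 at 4 months, 1 to 4 at P40 relative to the common shift, 0 at 4 months relative to it, 0 for age and 0 for the difference between mutants. The difference between ligand and receptor medians then ran from 0.499 to 0.589 points in miR29 KO, from 0.230 to 0.409 in WT at P40, from 0.249 to 0.516 in Dnmt3a mi5, and was 0.293 in WT at 4 months. Without the 4 libraries of low Y-gene coverage 0 genes passed at 4 months, where 1 library a group remained. At P40 Sema4c (adjusted p = 0.0571) and Sema7a (0.117) then lost their limma-moderated call. The count relative to the shift at P40 was 1 with the shortest transcript rows, without robust moderation, without the low-Y libraries, with the P40 groups alone and with limma on log2(percent + 0.5). It was 0 with limma on log2(percent + 0.1), also after the 1st percentile of each library was subtracted, and 15 (12 above, 3 below) with limma on percent levels. Percent levels also gave 15 at 4 months (13 above, 2 below), where 0 passed otherwise. On that scale genes of high level move by more points. No share of all genes tested is given for it, so these counts have no background beside them. The count for age relative to the shift was 1. In WT at 4 months the difference between ligand and receptor medians was 0.295 points with the shortest rows; with means over genes it was 0.177 points in miR29 KO, 0.0587 in WT at P40 and 0.0748 in WT at 4 months. With shortest rows Sema3b lost its call at P40 (adjusted p = 0.0732 in the limma-moderated model).

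Same-numbered P40 libraries deviated together with correlations over genes of -0.011, -0.040, -0.054 and 0.109, so the numbers were not taken as pairs. With the replicate block 29 genes passed at P40, without Plxnb3 (adjusted p = 0.101 in the limma-moderated model), and 28 at 4 months, with Sema3b, Sema4c and Sema4g added. Relative to the shift, 2 passed at P40 and 0 at 4 months, and 0 passed for the difference between mutants. At 4 months the correlation was -0.089. Not every sample correlated best with its own number. Calls of 2338 to 12429 per library limit what can be seen of Sema3b, Sema3g, Sema4c, Sema4g, Sema6b, Sema6c, Plxna3 and Plxnb3.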
